A study of Drosophila melanogaster with 12 samples.

Results

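Transcript levels were compared between the subjective cryophase and the subjective thermophase in heads of adult flies held at constant 25 °C in darkness. The comparison took 6 of the 12 arrays of the time course, and membership was decided by the hour in the sample labels alone, with no measured value used. AA2, AA6 and AA10 made up the subjective cryophase, the hours at which the temperature would have been 18 °C in the cycle the flies had come from. AA14, AA18 and AA22 made up the subjective thermophase. The letters AA stand for ambient/ambient, a day at 25 °C throughout, and the number gives hours since the cold phase would have begun. For each of 11145 probe sets that passed a filter on low values, the difference of the 2 means was taken on the log2 scale, as subjective cryophase minus subjective thermophase, and the 3 values of each phase were checked for overlap.

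All flies were of the strain y w, which carries the body and eye colour mutations yellow and white. They were reared at 25 °C in darkness until early pupal stages and then moved to a thermocycle of 12 h at 18 °C and 12 h at 25 °C. They stayed in it until eclosion and for 4 further days as adults, also in darkness. The other 6 arrays followed such a thermocycle day (CA, cold/ambient), in which CA2, CA6 and CA10 fell in the cryophase at 18 °C while CA14, CA18 and CA22 fell in the thermophase at 25 °C. Each array held RNA from a pool of heads at 1 time point, so the spread within a phase is the spread between hours 4 h apart together with the spread between pools, and these cannot be told apart.

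The circadian clock of Drosophila is a feedback loop in which the proteins CLK and CYC switch on per, tim, vri, Pdp1 and cwo, and the products of these genes act back on CLK and CYC or on the Clk gene. Cycles of temperature set this clock as cycles of light do, and its rhythm carries on for days when temperature is held constant. Output genes of the clock in the head include members of the takeout family, which encode secreted proteins resembling carriers of juvenile hormone, along with enzymes of detoxification and of lipid and sugar metabolism.

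The 6 arrays had medians between 5.57 and 5.59. Of 35 cell type markers with a probe set of their own, 34 lay above the array's 20th percentile (4.14 to 4.19) on all 6 arrays, and the exception was the neuronal gene elav, at 3.79 to 4.47. Of a wider neuronal list, 27 of the 32 genes on the array passed the filter on low values. RNA that heads should hold little of was present. A body-tissue index, the mean log2 deviation over 108 genes of gut enzymes, male reproductive tract and muscle, stood at -0.113, -0.193 and -0.291 on AA2, AA6 and AA10, against 0.401, 0.300 and -0.326 on AA14, AA18 and AA22. AA14 and AA18 thus held more of these transcripts than the 3 subjective cryophase arrays, and AA22 held the least of the 6. The summed linear level of 51 gut enzymes was 44917, 39106 and 36361 in the subjective cryophase and 72898, 66870 and 35165 in the subjective thermophase. That of 32 male genes was 14116 to 15820 in the subjective cryophase and 12810 to 22093 in the subjective thermophase, and that of 25 muscle genes 12779 to 13494 in the subjective cryophase and 12649 to 15647 in the subjective thermophase. Of the genes of these lists on the array, 51 of 56 gut genes, 32 of 37 male genes and 25 of 25 muscle genes passed the filter on low values. In such samples fewer cells of a type and less RNA per cell cannot be told apart.

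No transcript passed a test of the phase difference. In limma, 0 of 11145 probe sets (0%) had an adjusted p under 0.05, and the smallest adjusted p was 0.984. At an unadjusted p under 0.05 there were 212 probe sets (1.9%) higher and 115 (1.03%) lower in the subjective cryophase. Together these were 327 (2.93%), under the share of 0.05 that such a threshold passes where nothing differs. All 3 subjective cryophase values lay above all 3 subjective thermophase values for 740 probe sets (6.64%) and below them for 414 (3.71%). The 2 directions together made 1154 (10.4%), close to the share of 0.10 that 3 and 3 values in random order give. Differences were small. Over all probe sets the median size was 0.058, and 58.2% of the differences were above 0. Of the 740 and the 414, 53 and 75 differed by at least 0.25, and 4 and 19 by at least 0.5 on the log2 scale. For a single transcript, 3 values against 3 cannot give a two-sided exact permutation p below 0.10, the value that any such separation has. AA22 was the subjective thermophase array nearest to the subjective cryophase for 381 of the 740 and 195 of the 414, more than AA14 (190 and 122) or AA18 (169 and 97). Without AA22 the number at an unadjusted p under 0.05 was 827, against 327 with it, and without AA18 it was 211.

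Among the transcripts with the largest positive differences and no overlap were enzymes that modify small molecules and proteins secreted in the antenna or eye. Ugt35B1, a UDP-glycosyltransferase, which attaches sugars to small lipophilic molecules, had log2 values of 9.11, 9.54 and 9.23 at AA2, AA6 and AA10, against 8.76, 8.53 and 8.83 at AA14, AA18 and AA22. It was highest at AA6 and lowest at AA18, and its difference was 0.59 (standard error 0.18). A further Ugt35B1 probe set, of low signal, differed by 0.30 (standard error 0.11), also with no overlap. Fmo-2, a flavin-containing monooxygenase, measured 4.71, 5.07 and 4.85 in the subjective cryophase and 4.27, 4.41 and 4.42 in the subjective thermophase (difference 0.51, standard error 0.16). It too was highest at AA6. GstZ2, a zeta-class glutathione transferase, differed by 0.40 (standard error 0.17) and Nmdmc, a folate enzyme of mitochondria, by 0.38 (standard error 0.16), and both had their highest value at AA10 (6.81 and 7.72). CG5853, an ABC transporter of the family that includes white, differed by 0.48 (standard error 0.22), and its value at AA22, 7.32, came close to that at AA10, 7.36.

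**Figure D1:**
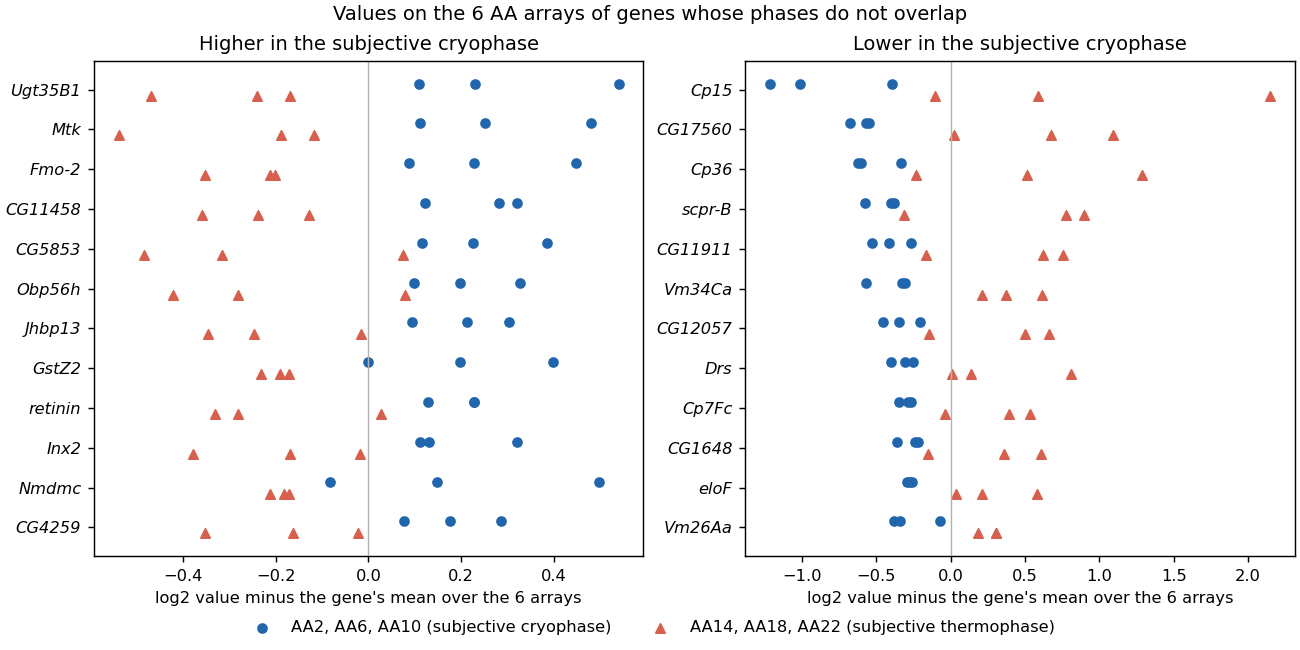
Values on the 6 AA arrays for the 12 largest positive (left) and 12 largest negative (right) differences among named genes outside the gut, male and muscle lists whose phases do not overlap, as log2 value minus the gene's mean over the 6 arrays. Circles are AA2, AA6 and AA10 (subjective cryophase) and triangles AA14, AA18 and AA22 (subjective thermophase), and differences run from 0.36 for CG4259 to 0.59 for Ugt35B1 on the left and from -0.53 for Vm26Aa to -1.74 for Cp15 on the right.

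Genes of secreted and membrane proteins of the head were also among the largest positive differences. Obp56h, an odorant-binding protein, measured 6.37, 6.60 and 6.47 in the subjective cryophase and 5.85, 5.99 and 6.35 in the subjective thermophase, and its difference was 0.41 (standard error 0.15). Its phases were parted only by the narrow gap between AA2 and AA22. The lens protein gene retinin had 11.91, 11.81 and 11.91 in the subjective cryophase, against 11.35, 11.40 and 11.71 in the subjective thermophase (difference 0.39, standard error 0.18). Jhbp13 (CG5945), of the takeout family, had 9.99, 10.20 and 10.11 in the subjective cryophase and 9.55, 9.65 and 9.88 in the subjective thermophase (0.41, standard error 0.13). For these 3 genes AA22 stood closest to the subjective cryophase. Inx2, a gap junction innexin, measured 6.61, 6.63 and 6.82 in the subjective cryophase, against 6.12, 6.33 and 6.48 in the subjective thermophase, a difference of 0.38 (standard error 0.10) that was also among the 8 smallest p of the higher genes. Fitted together with the body-tissue index, the differences were 0.29 for Obp56h, 0.23 for retinin, 0.31 for Jhbp13, 0.31 for Inx2 and 0.53 for Ugt35B1. The genes CG11458 and CG4259 completed the higher group, with differences of 0.48 (standard error 0.15) and 0.36 (standard error 0.13).

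A pair of antifungal peptide genes went in opposite directions. Mtk (metchnikowin) measured 11.49, 11.26 and 11.12 in the subjective cryophase and 10.47, 10.89 and 10.82 in the subjective thermophase, a difference of 0.56 (standard error 0.20). Drs (drosomycin) measured 8.30, 8.15 and 8.24 in the subjective cryophase and 8.69, 9.36 and 8.56 in the subjective thermophase, a difference of -0.64 (standard error 0.32). Neither gene's phases overlapped. On the thermocycle day Mtk differed by -0.37 (standard error 0.20) with a single high value of 11.59 at CA22, and Drs by -0.36 (standard error 0.32). Over 34 antimicrobial and immune genes, 3 lay above (8.82%) and 2 below (5.88%) without overlap. These shares were near the 6.64% and 3.71% over all probe sets. The median difference was 0.033, against 0.017 over all probe sets. Without AA14 and AA18 the median was -0.031.

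Among named genes outside the gut, male and muscle lists, the largest negative difference without overlap and 5 of the 12 largest were those of egg-shell genes, which are made by the follicle cells of the ovary and are not known as head transcripts. Cp15, a chorion protein, measured 6.34, 6.54 and 7.16 at AA2, AA6 and AA10, against 8.14, 9.70 and 7.45 at AA14, AA18 and AA22, a difference of -1.74 (standard error 0.84, 3.35-fold). It peaked at AA18. Cp36, also a chorion protein, measured 7.17, 7.19 and 7.46 in the subjective cryophase and 7.56, 8.31 and 9.08 in the subjective thermophase (-1.04, standard error 0.27), with its top value at AA22. The vitelline membrane genes Vm34Ca and Vm26Aa differed by -0.80 (standard error 0.26) and -0.53 (standard error 0.16), and Cp7Fc, a further chorion gene, measured 5.44, 5.36 and 5.42 in the subjective cryophase, against 6.24, 5.67 and 6.10 in the subjective thermophase (-0.60, standard error 0.13). Cp7Fc had the smallest unadjusted p of the lower genes with a name, and an adjusted p of 0.984.

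Of the 29 egg-shell and ovary genes on the array 21 passed the filter, and of these 9 lay below in the subjective cryophase without overlap (42.9%, where the share over all probe sets was 3.71%) and 1, Vm32E, lay above (4.76%). Besides the 5 chorion and vitelline membrane genes above, these were yellow-g (5.53, 5.32 and 5.49 in the subjective cryophase, against 5.87, 5.78 and 6.20 in the subjective thermophase) and yellow-g2, both needed for the vitelline membrane, png, which encodes a kinase of the egg, and CycB, a cyclin of dividing cells (6.60, 6.68 and 7.03 in the subjective cryophase, against 7.21, 7.19 and 7.19 in the subjective thermophase). At an unadjusted p under 0.05 in limma, 8 of the 21 were lower and 1 higher, against 1.03% and 1.9% of all probe sets. The 8 included Cp38, whose phases overlapped (6.34 at AA10 and 6.29 at AA14). Members differed among themselves. Cp16 and Cp19 had their highest value at AA10 (8.76 and 6.87), Cp18 measured 8.38 at AA10 and 8.73 at AA18, and the difference of Vm32E was 0.11. The median over the list was -0.149 in AA, 0.027 in CA, -0.188 when fitted with the body-tissue index and -0.108 without AA14 and AA18. The index was built without this list, so it does not measure ovary tissue. AA22 had the lowest index of the 6 arrays, -0.326. Cp36, Vm34Ca, yellow-g and Cp38 were highest at AA22, but Cp15 and Cp18 at AA18 and Cp7Fc at AA14. The summed linear level of the 21 genes was 1786, 1819 and 2438 in the subjective cryophase and 2359, 3428 and 2705 in the subjective thermophase, where AA10 exceeded AA14. The part of ovary tissue carried over into the head samples was not tested.

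**Figure D2:**
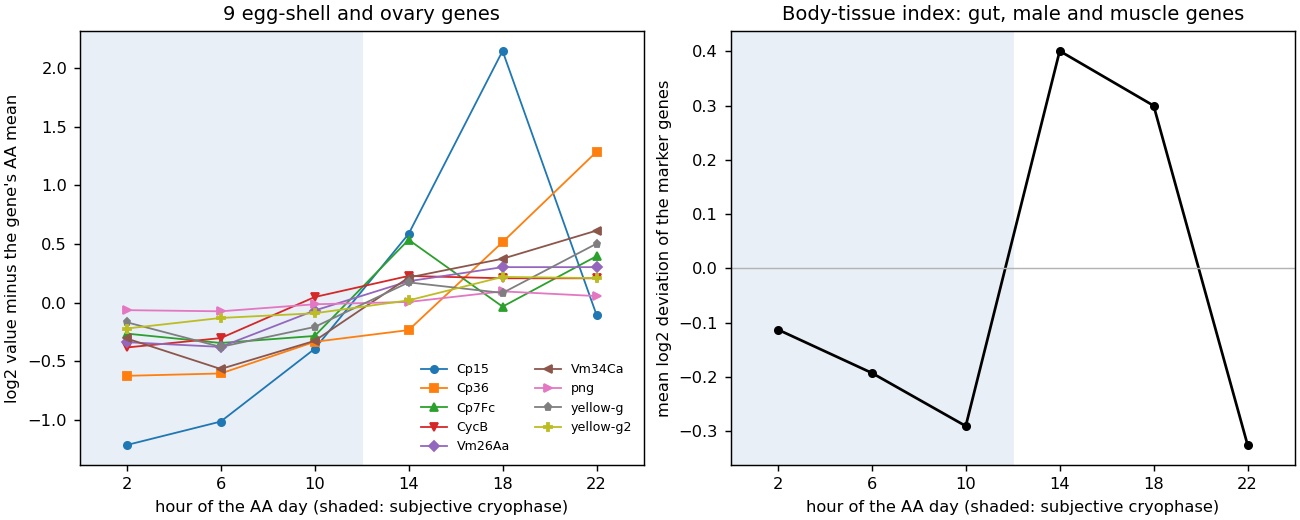
Left, the 9 egg-shell and ovary genes that did not overlap, as log2 value minus the gene's AA mean against the hour of the AA day. Right, the body-tissue index on the same arrays, with hours 0 to 12 (subjective cryophase) shaded in both. Cp36 and Vm34Ca were highest at AA22, Cp15 at AA18 and Cp7Fc at AA14. The index, built without the egg-shell and ovary list, was lowest at AA22 (-0.326).

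Enzymes of lipid metabolism were among the remaining large negative differences, and the 7 genes described next all had smaller differences with the index as a covariate. CG17560, a fatty acyl-CoA reductase by sequence, measured between 5.89 and 6.02 in the subjective cryophase, against 7.66, 7.24 and 6.59 in the subjective thermophase (-1.19, standard error 0.40, 2.29-fold), and -0.84 with the index as a covariate. It was highest at AA14 and lowest of the subjective thermophase at AA22, which still lay well above the subjective cryophase. The gene eloF, an elongase needed in females for long-chain cuticular pheromones, measured 4.44, 4.42 and 4.45 in the subjective cryophase, against 4.92, 5.29 and 4.75 in the subjective thermophase (-0.55, standard error 0.17). Fad2, the female desaturase of the same pathway, measured 5.40, 5.45 and 5.65 in the subjective cryophase, against 5.75, 6.01 and 5.88 in the subjective thermophase (-0.38, standard error 0.13). Neither overlapped, and with the index the differences were -0.41 and -0.32. In scpr-B, CG11911, CG12057 and CG1648 the differences of -0.90, -0.81, -0.68 and -0.55 shrank to -0.14, -0.33, -0.27 and -0.33 with the index, and each was highest at AA14 or AA18, the arrays of high index.

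Of the 8 clock feedback genes, tim alone had phases that did not overlap (12.5%, against 10.4% of all probe sets, both directions counted). It measured 7.85, 7.72 and 7.81 in the subjective cryophase and 7.88, 8.15 and 8.08 in the subjective thermophase, a difference of -0.24 (standard error 0.25). AA2 and AA14 lay close to each other. A cosine of 24 h peaked at 19.3 h with an amplitude of 0.21 (standard error 0.06, adjusted p of the cosine in limma 0.985). A further tim probe set, of low signal, differed by -0.18 (standard error 0.10) and did not overlap either. The partner of tim, per, differed little, with 6.05, 5.90 and 6.12 in the subjective cryophase, against 5.98, 6.04 and 6.03 in the subjective thermophase (0.01, standard error 0.09). Clk, the activator, measured 6.46, 6.94 and 6.79 in the subjective cryophase and 6.37, 6.43 and 6.79 in the subjective thermophase (0.20, standard error 0.14), and its AA2 value lay below AA22. The gene of the blue-light receptor of clock cells, cry, had 8.37, 8.57 and 8.50 in the subjective cryophase, against 8.36, 8.19 and 8.49 in the subjective thermophase (0.14, standard error 0.10), with the same overlap between AA2 and AA22.

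The repressor vri measured 7.98, 8.07 and 8.41 in the subjective cryophase and 8.43, 8.37 and 8.28 in the subjective thermophase (-0.21, standard error 0.15). Its highest values were at AA10 and AA14, on either side of the boundary between the phases. The cosine peaked at 14.8 h with an amplitude of 0.23 (standard error 0.08). AA10 lay above AA18 and AA22, so that the phases overlapped. Other amplitudes were 0.19 for Clk, 0.13 for cry, 0.09 for cwo, 0.08 for cyc, 0.04 for Pdp1 and 0.02 for per. For all 8 genes the cosine had an adjusted p of 0.985 to 0.997 in limma. An amplitude cannot fall below 0, and simulated probe sets without a rhythm averaged 0.092. The differences of cyc (0.12, standard error 0.09), Pdp1 (-0.02, standard error 0.12) and cwo (-0.06, standard error 0.10) were of the size of their errors. In the list of the clock's kinases and other regulators, 3 of 17 genes lay above without overlap (17.6%, against 6.64% overall) and 0 below. These were Pdfr, the receptor of the clock neuropeptide PDF (0.14, standard error 0.07), Slob, a partner of a potassium channel (0.25, standard error 0.12, against 0.05 in its other probe set), and the RNA-binding lark (0.11, standard error 0.06).

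**Figure D3:**
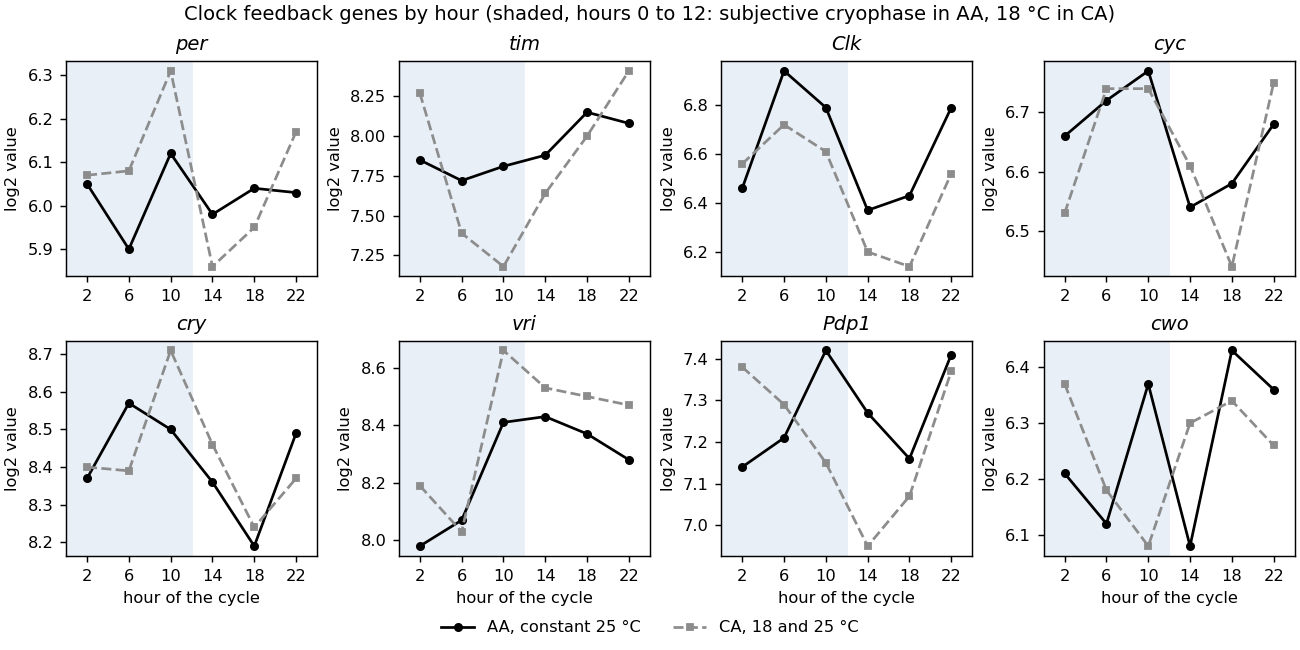
Log2 values of the 8 clock feedback genes against hour, as solid lines for the AA day at constant 25 °C and dashed lines for the CA day, with hours 0 to 12 shaded. In AA, tim lay between 7.72 and 7.85 in the subjective cryophase and between 7.88 and 8.15 in the subjective thermophase, while the phases overlapped for the other 7 genes.

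In the takeout family, 15 of the 17 genes on the array passed the filter. Of these, 4 lay above without overlap (26.7%) and 2 lay below (13.3%), where the shares over all probe sets were 6.64% and 3.71%. None of the 15 carries the name of takeout (to) itself, which is not described here. Besides Jhbp13, the higher members were CG7079 (5.70, 5.68 and 5.73 in the subjective cryophase, against 5.26, 5.35 and 5.63 in the subjective thermophase, difference 0.29, standard error 0.13), CG31189 (0.20, standard error 0.12) and dyw (0.19, standard error 0.10). The lower members were Jhbp12 (CG13618), with 4.59, 4.87 and 4.66 in the subjective cryophase, against 5.08, 5.13 and 4.87 in the subjective thermophase (-0.32, standard error 0.17), and Jhbp7 (CG11852), with -0.19 (standard error 0.13). At the 2 decimals printed, AA6 and AA22 of Jhbp12 are alike, so that its call rests on a smaller gap. Among the 9 members that overlapped, the abundant Jhbp14 (CG5867) had 10.10, 10.15 and 10.01 in the subjective cryophase, against 9.57, 9.67 and 10.08 in the subjective thermophase (0.31, standard error 0.15), and Jhbp3 (CG14661) 10.30, 10.21 and 10.15 in the subjective cryophase, against 9.76, 9.95 and 10.26 in the subjective thermophase (0.23, standard error 0.14). In both AA22 stood among the subjective cryophase values. Jhbp5 also overlapped and had the largest difference of the 15 (-0.63, standard error 0.56), or -0.07 with the index as a covariate. It was highest at AA14 and AA18 (6.10 and 5.91). Of the 15 members, 8 had a positive and 7 a negative difference. The list median was 0.075, or 0.017 with the index as a covariate, and it was -0.019 without AA14 and AA18.

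Odorant-binding proteins, which carry odorants in the fluid of the sensory hairs, differed among themselves. Of 36 on the array 25 passed the filter, and 4 of these lay above without overlap (16%) and 2 below (8%), where the shares over all probe sets were 6.64% and 3.71%. Their median was 0.053, or -0.011 with the index and -0.060 without AA14 and AA18. Obp99b measured 6.68, 6.78 and 6.73 in the subjective cryophase, against 6.98, 7.19 and 7.17 in the subjective thermophase (-0.38, standard error 0.12). Obp56a had 7.20, 7.05 and 6.95 in the subjective cryophase, against 7.21, 7.41 and 7.54 in the subjective thermophase (-0.32, standard error 0.13) and was parted only by AA2 and AA14. On the thermocycle day its difference was 0.34 (standard error 0.13), of the other sign, but the phases overlapped there. Obp99a differed by 0.51 (standard error 0.26) with an overlap, since AA22 at 9.47 exceeded AA10 at 9.42. It measured 10.05 and 9.92 at AA2 and AA6 and was lowest at AA14, at 9.08.

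Among genes of carbohydrate metabolism the differences were mostly negative. All 35 on the array passed the filter. Of these, 11 lay below without overlap (31.4%, against 3.71%) and 0 above, 25 had a negative difference, and the median was -0.078. Sodh1, a sorbitol dehydrogenase, measured 8.49, 8.24 and 8.17 in the subjective cryophase, against 8.63, 8.80 and 8.62 in the subjective thermophase (-0.39, standard error 0.12). Taldo, the transaldolase of the pentose phosphate pathway, measured 8.62, 8.59 and 8.79 in the subjective cryophase, against 8.81, 9.03 and 8.98 in the subjective thermophase (-0.27, standard error 0.09). Sodh1 was lowest at AA10 and Taldo at AA6. AGBE, the glycogen branching enzyme, differed by -0.27 (standard error 0.17), Glyp, glycogen phosphorylase, by -0.23 (standard error 0.08), and Galk, galactokinase, by -0.18 (standard error 0.09). Eno and Pfk, of glycolysis, differed by -0.15 (standard error 0.08) and -0.10 (standard error 0.08), and Tps1, of trehalose synthesis, by -0.15 (standard error 0.06), although it lay 0.16 higher at 18 °C in CA. The others were Galt, Pgm1 and mAcon1, at -0.13 to -0.11. CG8036, a transketolase by sequence that is not on the list, measured 10.06, 10.04 and 10.16 in the subjective cryophase, against 10.32, 10.39 and 10.36 in the subjective thermophase (-0.27, standard error 0.07), among the 8 smallest p of the lower genes. The list median was -0.045 with the index as a covariate and -0.031 without AA14 and AA18, and in CA it was -0.063.

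**Figure D4:**
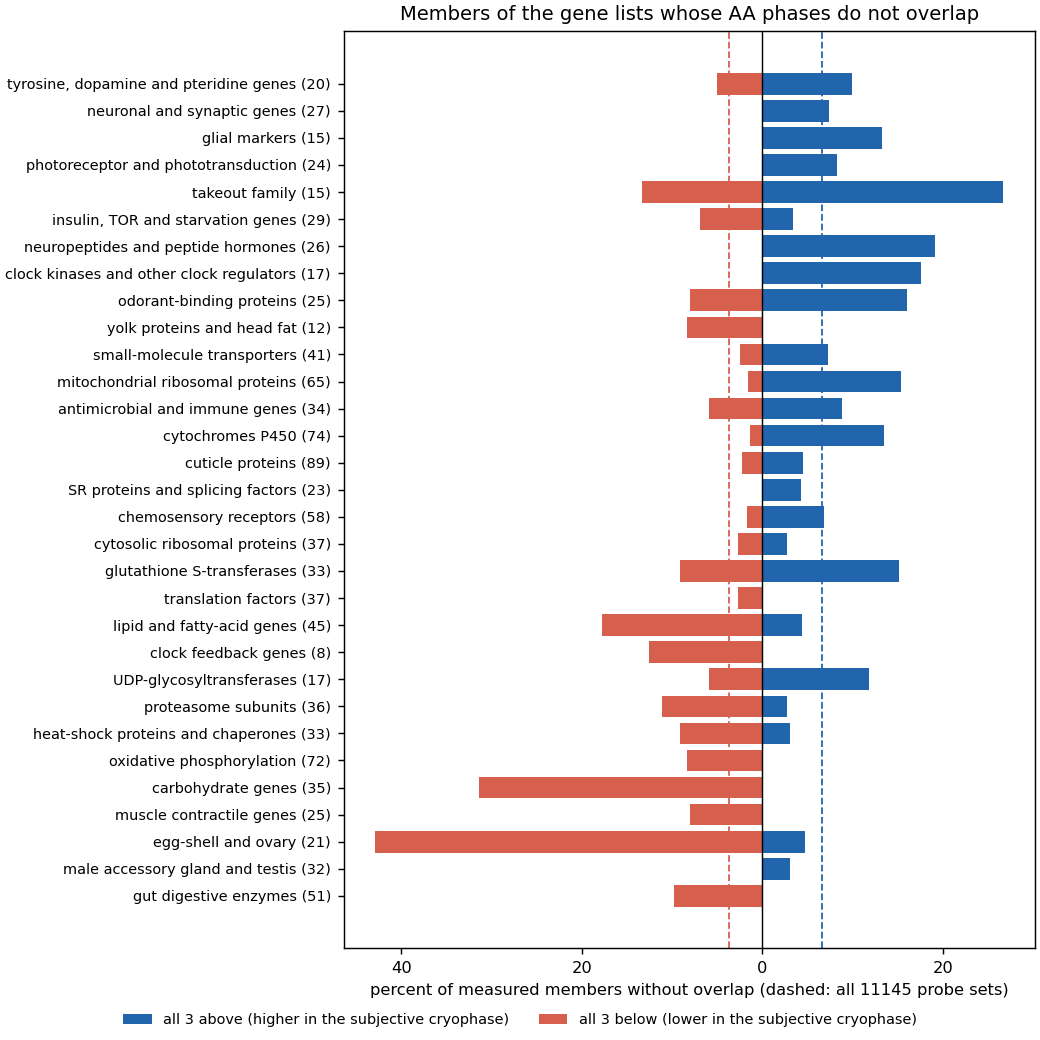
Percent of the measured members of each gene list (number in brackets) whose 3 subjective cryophase values all lay above (right) or all below (left) the 3 subjective thermophase values, ordered from the highest to the lowest median difference. Dashed lines are the shares over all 11145 probe sets, 6.64% above and 3.71% below, and the egg-shell list (42.9%) and the carbohydrate list (31.4%) have the longest bars on the left.

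The other metabolic lists differed in the direction of their medians, and their shares are read against 6.64% above and 3.71% below over all probe sets. Of 45 lipid and fatty-acid genes, 8 lay below without overlap (17.8%) and 2 above (4.44%), with a median of -0.007. Besides eloF and Fad2 these included ATPCL, which makes cytosolic acetyl-CoA (8.06, 8.22 and 8.22 in the subjective cryophase, against 8.40, 8.42 and 8.41 in the subjective thermophase, difference -0.24, standard error 0.10), and Lsd-1, a perilipin of lipid droplets (-0.27, standard error 0.14). Of 72 genes of oxidative phosphorylation, 62 had a negative difference, 6 lay below without overlap (8.33%) and 0 above. Their median was -0.065, but it was -0.014 with the index and 0.042, of the other sign, without AA14 and AA18. ND-18 measured 7.08, 7.08 and 7.10 in the subjective cryophase, against 7.30, 7.46 and 7.13 in the subjective thermophase (-0.21, standard error 0.09). Of 65 mitochondrial ribosomal protein genes, 10 lay above (15.4%) and 1 below (1.54%), with small differences (median 0.035, or 0.027 with the index). An example is mRpL55, at 8.69, 8.68 and 8.68 in the subjective cryophase, against 8.47, 8.61 and 8.62 in the subjective thermophase.

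Of 74 cytochromes P450, 10 lay above without overlap (13.5%, against 6.64% of all probe sets) and 1, Cyp4ad1, below (1.35%, against 3.71%), and the largest of the 10 were those of Cyp28c1 (0.21, standard error 0.09), Cyp4g15 (0.17, standard error 0.12) and Cyp4p1 (0.17, standard error 0.10). The list median was 0.033, or 0.013 with the index. Of 33 glutathione transferases, 5 lay above (15.2%) and 3 below (9.09%). GstE9, at 9.26, 9.21 and 9.38 in the subjective cryophase, against 9.41, 9.46 and 9.45 in the subjective thermophase (-0.16, standard error 0.06), was the lower member with the smallest p. Of 17 UDP-glycosyltransferases, 2 lay above (11.8%) and 1 below (5.88%). Their median was -0.010, and after Ugt35B1 the next member without overlap, Ugt36A1, differed by 0.11.

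Genes of the nervous system and eye had mostly positive differences, as did 58.2% of all probe sets. Of 26 neuropeptide and peptide hormone genes, 5 lay above (19.2%, against 6.64% of all probe sets) and 0 below. The median was 0.063, or 0.005 with the index and -0.005 without AA14 and AA18. Nplp3, which encodes an abundant neuropeptide-like precursor, measured 12.46, 12.51 and 12.50 in the subjective cryophase, against 12.07, 12.15 and 12.38 in the subjective thermophase (0.29, standard error 0.12). ITP, an ion transport peptide, differed by 0.23 (standard error 0.12), Capa by 0.11 (standard error 0.10), Nplp4 by 0.09 (standard error 0.07) and NPF by 0.06 (standard error 0.08). In the photoreceptor list 22 of 24 differences were positive and 2 genes, retinin and ninaG, did not overlap (8.33%). The summed linear level of that list was 24332, 24357 and 24248 in the subjective cryophase and 19296, 20685 and 25080 in the subjective thermophase, where AA22 had the highest sum of the 6. Its median of 0.082 became -0.007 with the index and -0.041 without AA14 and AA18. Of 27 neuronal genes, 23 were positive and 2, VGlut and Shab, did not overlap (7.41%). Their median was 0.088, or 0.046 with the index and 0.023 without AA14 and AA18. Of 15 glial genes, 12 were positive and 2, Inx2 and nrv2, did not overlap (13.3%). The median of 0.083 became -0.022 with the index and -0.042 without AA14 and AA18. Of 20 genes of tyrosine, dopamine and pteridine metabolism, 2 lay above (10%) and 1, Tdc1, below (5%, against 3.71% of all probe sets). Their median was 0.104, or 0.048 with the index and 0.005 without AA14 and AA18. The higher ones were ple, tyrosine hydroxylase (0.11, standard error 0.08), and t, which releases dopamine and histamine from their conjugates (0.20, standard error 0.16).

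In the remaining lists the members without overlap were counted in the same way, against 6.64% above and 3.71% below over all probe sets. Of 33 chaperones 1 lay above (3.03%) and 3 below (9.09%), with a median of -0.046, and of 36 proteasome subunits 1 lay above (2.78%) and 4 below (11.1%), with a median of -0.027. Above and below there were 4 and 2 of 89 cuticle proteins (median 0.030), 3 and 1 of 41 small-molecule transporters (0.042), 4 and 1 of 58 chemosensory receptors (0.024), 1 and 2 of 29 insulin, TOR and starvation genes (0.075), 0 and 1 of 12 yolk protein and head fat genes (0.045), 1 and 0 of 23 splicing factors (0.030), 0 and 1 of 37 translation factors (0.016) and 1 and 1 of 37 cytosolic ribosomal proteins (0.021). Among the chaperones, Stip1, which links Hsp70 with Hsp90, measured 6.78, 6.95 and 6.96 in the subjective cryophase, against 7.17, 7.06 and 7.16 in the subjective thermophase (-0.24, standard error 0.13). Among the starvation genes, MsrA, which repairs oxidised methionine, differed by -0.29 (standard error 0.11), ref(2)P, the autophagy receptor p62, by -0.12 (standard error 0.08) and EcR, the ecdysone receptor, by 0.14 (standard error 0.07). The lists behind the body-tissue index had 0 and 5 of 51 gut genes, 1 and 0 of 32 male genes and 0 and 2 of 25 muscle genes, and their medians of -0.358, -0.325 and -0.127 are part of what the index measures. Without AA14 and AA18 these medians were 0.085, 0.338 and 0.025.

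CG14742 had the smallest unadjusted p among genes with a name, with 7.01, 7.22 and 7.17 in the subjective cryophase, against 6.87, 6.75 and 6.72 in the subjective thermophase (0.35, standard error 0.07). Sox15, an HMG-box transcription factor, measured 5.17, 5.30 and 5.32 in the subjective cryophase, against 4.98, 5.01 and 5.02 in the subjective thermophase (0.26, standard error 0.07), but its other probe sets differed by 0.01 and -0.11 and overlapped. Dpck, an enzyme of coenzyme A synthesis, differed by 0.25 (standard error 0.06), Dhps, which makes the hypusine of eIF5A, by 0.24 (standard error 0.06), and Pex10, of peroxisome import, by 0.18 (standard error 0.05). Drep3, of the family of DNA fragmentation factors, differed by 0.27 (standard error 0.07), against -0.05 in its other probe set, and CG16779 by 0.28 (standard error 0.08). On the lower side were CG3609 (9.50, 9.43 and 9.54 in the subjective cryophase, against 9.82, 9.86 and 9.71 in the subjective thermophase, difference -0.31, standard error 0.07), Plap, a phospholipase A2 activator (-0.26, standard error 0.06), CG13114 (-0.28, standard error 0.07), CG13252 (-0.21, standard error 0.05), yellow-g (-0.50, standard error 0.13) and dpr3 (-0.25, standard error 0.07). For dpr3, a cell-surface immunoglobulin, the other probe sets gave 0.18 and 0.11, of the other sign.

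The thermocycle day gave arrays that the difference of means and the overlap in AA had not used, although they entered the filter on low values and the standard errors of the limma fit. There, all 3 cryophase values lay above all 3 thermophase values for 1404 probe sets (12.6%) and below for 566 (5.08%). No overlap on either day and the same direction on both was found for 160 probe sets (1.44%) higher and 72 (0.646%) lower. The 160 are 21.6% of the higher probe sets of AA and 11.4% of those of CA, and the 72 are 17.4% of the lower probe sets of AA and 12.7% of those of CA. The opposite direction on the 2 days was found for 14 of the 740 and 13 of the 414. Arrays at 14 and 18 h had a high body-tissue index on both days (0.619 and 0.898 at CA14 and CA18), and the arrays were normalized together. With the slope on the index, estimated within the 4 groups, taken out of each gene, 111 and 101 probe sets did not overlap on both days, which is 17.8% and 14.8% of those of AA, where the shares of CA over all probe sets were 8.88% and 8.46%. Of the 160 and the 72, 71 and 27 were still among them. The step with the within-group slope was added after seeing the data. With the index regressed out over all arrays instead, 0 higher and 0 lower probe sets lay apart on both days in the same direction. Regressing it out removes whatever both days share with the index, phase differences included, so it cannot tell body tissue from phase.

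**Figure D5:**
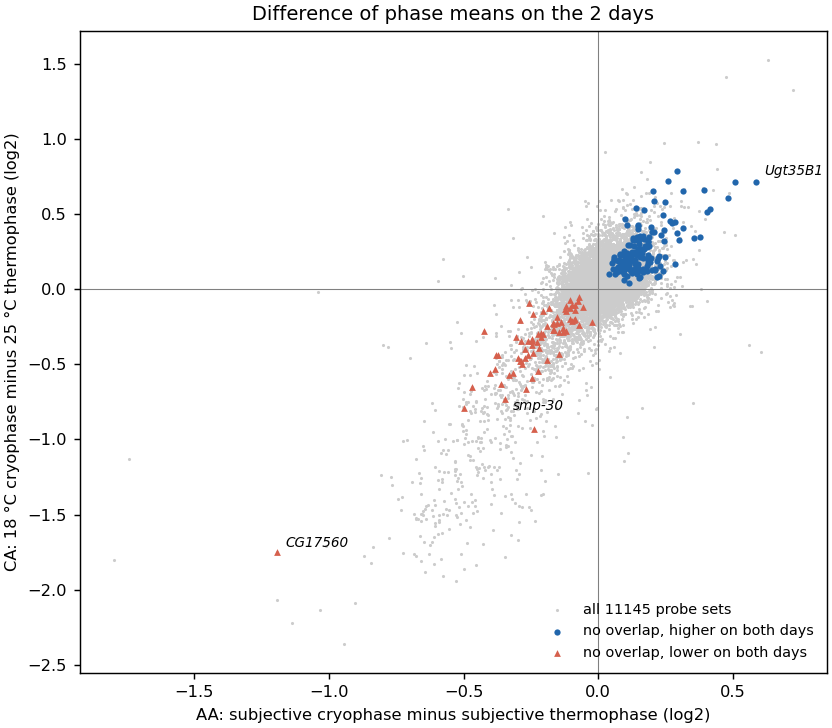
Difference of phase means for 11145 probe sets, on the horizontal axis for AA (subjective cryophase minus subjective thermophase, log2) and on the vertical axis for CA (18 °C cryophase minus 25 °C thermophase, log2). Circles are the 160 probe sets higher and triangles the 72 lower on both days without overlap, and Ugt35B1 (0.59 and 0.71) and CG17560 (-1.19 and -1.75) are labelled.

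Ugt35B1, Fmo-2, CG11458, Obp56h, Jhbp13, retinin, Inx2 and CG14742 had the largest differences that were higher on both days. In Ugt35B1 the difference was 0.59 in AA and 0.71 (standard error 0.18) in CA, where it measured 9.05, 9.34 and 9.55 at 18 °C and 9.01, 8.35 and 8.43 at 25 °C. CG14742 differed by 0.35 in AA and 0.34 (standard error 0.07) in CA, and Inx2 by 0.38 in AA and 0.35 (standard error 0.10) in CA. On the lower side stood CG17560, CG16926, CG1835, Sodh1, Had1, nmdyn-D7, CG3699 and smp-30. The gene smp-30, the fly regucalcin, measured 8.52, 8.47 and 8.49 in the subjective cryophase, against 8.84, 8.98 and 8.71 in the subjective thermophase, in AA (-0.35, standard error 0.14) and differed by -0.73 (standard error 0.14) in CA. Had1, a hydroxyacyl-CoA dehydrogenase, differed by -0.38 (standard error 0.12) in AA and by -0.44 (standard error 0.12) in CA. The within-group slope on the index, a step added after seeing the data, was then taken out. Of these 16 genes, Fmo-2, CG14742, Inx2, Jhbp13, retinin, CG3699, Sodh1 and smp-30 still did not overlap on either day. With the index regressed out instead, none of the 16 lay apart on both days in the same direction.

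The test of the difference between the AA and the CA contrast called 0 of 11145 probe sets (0%), with 401 (3.6%) at an unadjusted p under 0.05 and a smallest adjusted p of 0.497. Arrays of the same hour on the 2 days could be paired, and with the hour as a block, a fit chosen after seeing the data, 0 probe sets (0%) were called, 1162 (10.4%) had an unadjusted p under 0.05 and the smallest adjusted p was 0.133. Of the 401, 369 were among the 1162. Several named genes lay apart in AA and not in CA. Cp36 lay between 6.95 and 7.07 on all 6 CA arrays, and its AA minus CA difference was -1.02 (standard error 0.39). For Cp7Fc the AA minus CA difference was -0.65 (standard error 0.19) and for yellow-g -0.59 (standard error 0.18). Sox15 differed by 0.26 in AA and -0.09 (standard error 0.07) in CA, and Dpck by 0.25 in AA and -0.03 (standard error 0.06) in CA. In Stip1 the difference was larger in CA, with -0.24 in AA and -0.93 (standard error 0.13) in CA. The adjusted p of the AA minus CA difference was 0.933 for each of these 6 genes, and 0.390 to 0.422 with the hour as a block.

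The 24-h cosine over the 6 AA arrays called 0 probe sets (0%) in limma, with 392 (3.52%) at an unadjusted p under 0.05 and a smallest adjusted p of 0.390. The names taken from this fit were picked with their values in view. The smallest p belonged to Obp99a, with an amplitude of 0.46 (standard error 0.06) and a peak at 3.4 h, and Ugt35B1, with an amplitude of 0.46 (standard error 0.06) and a peak at 6.1 h, and both had an adjusted p of 0.390. The next 4 genes were CG10553, Acsx3, CG14742 and CG42323, each with an adjusted p of 0.483. CG10553 measured 8.34, 8.19 and 7.70 in the subjective cryophase and 7.65, 7.94 and 8.37 in the subjective thermophase, so that its peak at 0.8 h fell at the boundary of the phases and its phase difference was 0.09 (standard error 0.21). Acsx3, an acyl-CoA synthetase, had an amplitude of 0.43 (standard error 0.06) with a peak at 3.9 h, and its difference of 0.47 (standard error 0.24) came with an overlap, as AA22 at 6.78 exceeded AA10 at 6.71. With the index as a covariate, 6 probe sets had an adjusted p under 0.05, each at 0.0466: Ugt35B1, CG10553, Obp99a, Hpd, Cpr72Ec and Acsx3.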

How the data were processed

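RNA from y w heads was hybridised to Affymetrix Drosophila Genome arrays, 1 per time point and 12 in all. The deposited values are log2 expression levels that the authors made with RMA (background correction, normalization of all arrays together, summary per probe set), whose version and genome build are not given in the sources used here. There are no counts or depths, so precision is limited by how many arrays there are. Of 14010 probe sets, 12443 have 1 gene name, 327 several and 1196 none, and 44 are controls. Names came from the platform annotation, with 38 updated through a RefSeq gene table. Probe sets with over 6 of 12 values above their array's 20th percentile were kept (11145, for 8897 genes), and in lists the probe set with the highest mean stood for a gene.

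Differences were tested in limma 3.58.1 (R 4.3.3) with 4 groups of 3 arrays (8 residual degrees of freedom), and a cosine model with a period of 24 h had 6. The Benjamini-Hochberg adjustment ran over all 11145, and standard errors of differences are limma's. The standard error beside an amplitude is that of a cosine or sine coefficient, computed from limma's moderated spread. As no time point was repeated, p-values measure only the spread between single arrays at different hours. On simulated data among 11145 probe sets, 81% of differences of 0.5 and 95% of differences of 1 in the AA contrast were recovered. For cosines of those amplitudes it was 93% and 98%. The simulated spread was drawn independently for each probe set and array. It held no shift shared by many genes of an array, so these rates are not the power on the real arrays. Figures used matplotlib 3.10.9 under Python 3.11.15.

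Named were the 12 highest and 12 lowest differences without overlap, the 8 higher and 8 lower with the smallest p, every clock feedback gene, takeout family members without overlap, the 8 higher and 8 lower with the largest differences without overlap on both days, and up to 3 members without overlap of each other list. Genes of the gut, male and muscle lists took no place in the groups of 12 and 8. Any other name was picked with its values in view. The comparison, the 31 lists and the rules were chosen with earlier results of these data known.

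Alternatives were no filter, the upper 50% of means, a trended robust prior, the AA arrays only, a common array median, the body-tissue index as a covariate or regressed out, an adjusted p under 0.2, a gap of at least 0.2, averaged probe sets and each array left out. Fits that left out AA14 with AA18, or CA10 with CA18, the within-group slope on the index, and the AA minus CA difference with the hour as a block, were added after seeing the data.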

Additional observations from a re-analysis of the deposited data

Results flagged for a closer look

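Opposite directions without overlap on the 2 days were found for 14 of the 740 probe sets higher in AA (1.89%, where 5.08% of all probe sets lay lower in CA) and 13 of the 414 lower in AA (3.14%, where 12.6% lay higher in CA). Of these, 8 belong to genes named here, of which Pex10 and eEF1gamma came from the naming rule, Tps1 and SREBP are members of the metabolic lists, and CG5708, CSN3, CG16758 and key were taken as the largest in each direction with their values in view. In every case all 3 values of a phase moved one way in AA and the other way in CA, and the limma test of that difference gave an adjusted p of 0.933, or 0.409 to 0.467 with the hour as a block. The largest was that of key, which encodes a subunit of the kinase of the Imd immune pathway, with 5.35, 5.17 and 5.02 in the subjective cryophase and 5.37, 5.55 and 5.42 in the subjective thermophase, and with 5.27, 5.37 and 5.28 at 18 °C and 5.05, 5.07 and 5.17 at 25 °C in CA. Its AA minus CA difference was -0.48 (standard error 0.12). For CG16758 it was -0.38 (standard error 0.12) and for eEF1gamma, a translation elongation factor, -0.26 (standard error 0.08), both lower in the subjective cryophase and higher at 18 °C. Tps1, of trehalose synthesis (-0.31, standard error 0.08), and SREBP, a regulator of lipid synthesis (-0.24, standard error 0.07), had the same signs. In AA itself SREBP differed by only -0.04 (standard error 0.05). On the thermocycle day Tps1 measured 11.04, 11.10 and 11.04 at 18 °C and 10.91, 10.88 and 10.90 at 25 °C. CG5708 (0.25, standard error 0.10), CSN3, of the COP9 signalosome (0.24, standard error 0.08), and Pex10 (0.24, standard error 0.07) were higher in the subjective cryophase and lower at 18 °C. In CA itself Pex10 differed by only -0.06 (standard error 0.05).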

How the results depend on the processing

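The count of 0 transcripts in the AA contrast held under every alternative except the fit without AA14 and AA18, which called 1 (Cp36, adjusted p = 0.000657) in the contrast and 1 (also Cp36) in the AA minus CA difference. That fit leaves AA22 alone in its phase and assumes that it varies as the other groups do. With the index as a covariate the AA minus CA difference called 1 unnamed probe set and the cosine 6. At an unadjusted p under 0.05 the AA contrast had 171 probe sets in the upper 50% of means (fewer were tested), 611 with AA arrays only, 503 without CA10 and CA18, and 211 to 827 with 1 array left out. The AA minus CA difference had 251, 881 without AA14 and AA18, and 1162, against 401, with the hour as a replicate block (4 residual degrees of freedom), where it called 0. The cosine had 232, 655 with AA arrays only, 669 with the index, 221 without AA14 and AA18, 732 without CA10 and CA18, and 226 to 476 with 1 array left out. Probe sets without overlap numbered 429 above and 262 below in the upper 50% of means, 5 and 11 with a gap of at least 0.2, 1022 to 2423 and 656 to 1618 with 1 array left out (3 values against 2 separate more easily), and 684 below with the within-group slope on the index taken out. With the index regressed out over all 12 arrays 444 lay above, and 0 and 0 lay apart on both days. That step removes whatever both days share with the index, phase differences included, so it cannot tell body tissue from phase. The cause of these shifts was not tested.

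Of 126 named probe sets, 6 changed sign in some setting. Without AA14 and AA18 the AA difference was -0.29 for CG10553, -0.06 for Clk, -0.01 for cry and -0.01 for per, and per stood at -0.06 with the index. With 1 array left out it ran from -0.08 to 0.28 for CG10553, -0.11 to 0.04 for Pdp1, -0.16 to 0.01 for cwo and -0.04 to 0.07 for per. Of 31 list medians, 25 moved by over 1 SD between arrays in some setting, 23 of them without AA14 and AA18 and 7 with the index. Without AA14 and AA18, 17 had the other sign, and the median over all probe sets was -0.007, against 0.017. With the index, 8 had the other sign. Within AA the phases share no hour, so that no paired analysis was possible because no array of one phase has a partner in the other.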
